A study of Homo sapiens with 6 samples.

Results

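The pathway that runs from the adaptor MYD88 and the kinase IRAK1 to NF-κB was followed through 10 genes in human HEK293T cells whose ALKBH5 and FTO genes had both been targeted with CRISPR/Cas9. IRAK1 was chosen because it was higher in these cells, and IRAK4, MYD88, TRAF6, MAP3K7, TAB1, TAB2, IKBKB, NFKBIA and RELA were added as its pathway. All 10 were found by symbol among the 58721 genes of the table. IRAK1 was chosen by the same counts that are given below, in the same comparison, so its values are a description and carry no test.

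RNA was sequenced from 3 double knockout libraries and 3 wild type libraries, described by the submitters as independent biological replicates. The double knockout cells were HEK293T cells that lack ALKBH5 and FTO by design, and the wild type cells were HEK293T cells without that change. HEK293T is an established line derived from human embryonic kidney cells that carries the SV40 large T antigen. The labels list no ligand of the pathway for either group and give both the same culture conditions. Whether the double knockout libraries come from a single clone is not stated in the labels. ALKBH5 and FTO are the enzymes known to remove the m6A methyl mark from RNA. The RNA came from cleared detergent lysates made with cycloheximide, was depleted of ribosomal RNA and was not selected for poly(A) tails.

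Toll-like receptors and the interleukin-1 receptor family recruit MYD88, which gathers IRAK4 and IRAK1 into a complex. IRAK1 is phosphorylated there and engages TRAF6, a ubiquitin ligase whose chains bring in the kinase TAK1, the product of MAP3K7, through the chain-binding protein TAB2, while TAB1 activates TAK1 directly. TAK1 then activates IκB kinase, which marks the inhibitor IκBα, encoded by NFKBIA, for destruction and frees RELA to enter the nucleus. Most of these steps act on proteins already made, whereas the measurements here are of RNA. HEK293 cells are known for lacking most Toll-like receptors, and they are often used as hosts into which single receptors are introduced.

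The 250 bases upstream of the transcription start are shown for the gene that was chosen, IRAK1, and for NF-κB genes that NF-κB itself is known to control. They are from the RefSeq promoter table (GRCh38.p14), and each is printed 5′ to 3′ on the strand of its gene, with capitals marking a motif found by exact search of both strands. For IRAK1, at chrX:154019903-154020152 on the minus strand, capitals mark the GC box GGGCGG or its complement, found at 4 places whose first bases lie at -237, -184, -52 and -43 from the start.
IRAK1: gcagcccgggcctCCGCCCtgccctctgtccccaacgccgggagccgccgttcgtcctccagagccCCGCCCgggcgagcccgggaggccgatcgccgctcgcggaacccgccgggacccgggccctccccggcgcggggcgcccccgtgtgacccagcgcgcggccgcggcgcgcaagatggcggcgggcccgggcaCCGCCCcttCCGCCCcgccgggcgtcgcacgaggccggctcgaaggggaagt
For NFKBIA, at chr14:35404750-35404999 on the minus strand, capitals mark the only match to the NF-κB consensus, from -81 to -72.
NFKBIA: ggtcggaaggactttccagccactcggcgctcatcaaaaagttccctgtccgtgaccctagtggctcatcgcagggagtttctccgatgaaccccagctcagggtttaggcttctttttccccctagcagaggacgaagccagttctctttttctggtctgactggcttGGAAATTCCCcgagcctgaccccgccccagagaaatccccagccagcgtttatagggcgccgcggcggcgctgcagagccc
NFKB1 and NFKB2 encode the partners of RELA, p105/p50 and p100/p52, and are shown because they changed in opposite directions. The NFKB1 window at chr4:102501109-102501358 on the plus strand holds 1 match to the same consensus, from -49 to -40.
NFKB1: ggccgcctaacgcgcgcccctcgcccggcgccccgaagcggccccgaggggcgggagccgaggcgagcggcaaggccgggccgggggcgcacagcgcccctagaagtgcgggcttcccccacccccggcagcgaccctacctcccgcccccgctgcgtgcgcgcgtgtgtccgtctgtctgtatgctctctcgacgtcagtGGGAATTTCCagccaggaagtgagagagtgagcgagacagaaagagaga
The NFKB2 window at chr10:102394328-102394577 on the plus strand holds matches at 2 places, from -107 to -97 and from -78 to -69.
NFKB2: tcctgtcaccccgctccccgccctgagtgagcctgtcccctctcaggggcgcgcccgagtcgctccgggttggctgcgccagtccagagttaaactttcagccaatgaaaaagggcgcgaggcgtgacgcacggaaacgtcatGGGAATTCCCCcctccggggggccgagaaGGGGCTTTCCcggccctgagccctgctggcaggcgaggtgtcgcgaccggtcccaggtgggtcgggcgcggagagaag
The consensus was found in 5.91% of all 35116 promoters of 300 bases in the table and the GC box in 45.0%. The table held promoters for 9 of the 10 members, all but IKBKB, in 11 windows. A GC box was found in 9 of these 9 members and the NF-κB consensus in 2 of them, NFKBIA and TAB2. Counted by gene in the same way, 78.0% of 10092 tested genes with a promoter had a GC box in at least 1 window and 9.14% had the consensus. NFKB1 has 2 windows in the table and NFKB2 has 3, and the consensus was found in 1 and 2 of them. A match is a description of letters and does not show that a factor binds there.

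Library totals lay between 5923328 and 6433469 gene counts in double knockout and between 5634648 and 7551825 in wild type. Libraries of a group differed little: the ratio of chi-square to its degrees of freedom was 1.10 to 1.38 between libraries of a group and 10.8 to 12.7 between groups. FTO RNA averaged 56.1 ± 4.21 CPM (counts per 1000000 counts) in double knockout and 105 ± 7.83 CPM in wild type, and ALKBH5 RNA averaged 186 ± 0.599 CPM in double knockout and 245 ± 10.3 CPM in wild type (SD, n = 3 each). Both were lower in the libraries labelled double knockout, with log2 fold changes of -0.90 (SE 0.06) and -0.40 (SE 0.04), and RNA of both remained. FTO overlaps RPGRIP1L on the opposite strand, so its count is uncertain. The HEK293 line was followed through 8 markers, KRT8, KRT18, VIM, CDH2, NEFM, NEFL, PAX2 and LHX1. All 8 rose, where 28.6% of all tested genes rose and 28.5% fell. Their summed level was 1591 to 1601 CPM in double knockout and 1112 to 1185 CPM in wild type. None of 10 myeloid markers passed the filter on low counts, TYROBP and AIF1 were at 0, and their sum was 1.499 to 3.04 CPM in double knockout and 1.49 to 2.72 CPM in wild type. Of 8 endothelial and fibroblast markers, 3 were tested and 3 fell, where 28.5% of all tested genes fell. The sums over all 8 were 10.2 to 13.1 CPM in double knockout and 17.5 to 20.4 CPM in wild type, with COL1A2 at 0. The part of these marker shifts in the results below was not tested. Because a library pools many cells, fewer cells with a transcript and less of it per cell cannot be told apart.

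IRAK1 was the most abundant of the 10 by a wide margin, and it was higher in double knockout. Its level was 1165, 1185 and 1177 CPM in the double knockout libraries and 652, 690 and 676 CPM in the wild type libraries. All double knockout libraries lie above all wild type libraries, and the libraries within a group lie close together. The gene (ENSG00000184216.13, chromosome X, 154010500 to 154019980, minus strand, hg38) had 22047 counts in double knockout and 13543 in wild type. The means were 1175 ± 9.92 CPM in double knockout and 672 ± 19.2 CPM in wild type (SD, n = 3 each), a log2 fold change of 0.81 (SE 0.03), or 1.75-fold. Per length of exon, IRAK1 reached 1009 ± 14.5 TPM in double knockout and 561 ± 16.3 TPM in wild type (transcripts per 1000000, from the 4001 bases of its merged exons). By TPM it ranked 89th of 14180 tested genes in double knockout and 194th in wild type. It held 77.1% ± 0.764 of the summed TPM of the 10 members in double knockout and 65.4% ± 0.720 in wild type. The microRNA gene MIR718 lies on the same strand inside IRAK1 and had 0 counts in all libraries.

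Differences between the groups were common in this comparison, and the other members are read against that. Of 14180 tested genes, 57.1% had an adjusted p below 0.05 in edgeR's quasi-likelihood test, 28.6% higher and 28.5% lower in double knockout, and the median log2 fold change was 0.01. Of the 9 members other than IRAK1, 8 passed the filter on low counts. RELA and IKBKB rose, TAB2 and TRAF6 fell, and 4 were not called. That is 2 of 8 in each direction, close to the background share, and the median log2 fold change of the 8 was 0.09. With libraries scaled by the GFP and FLuc spike-in RNAs in place of the counts, 1 was higher and 2 were lower, and of all tested genes 44.9% were called, 15% higher and 29.9% lower. In DESeq2's Wald test, 2 were higher and 1 was lower, and of all tested genes 43.5% were called, 21.3% higher and 22.1% lower. Whether the libraries of the groups overlap is given for each gene as a description only. The share of all tested genes without overlap is not given here.

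**Figure D1:**
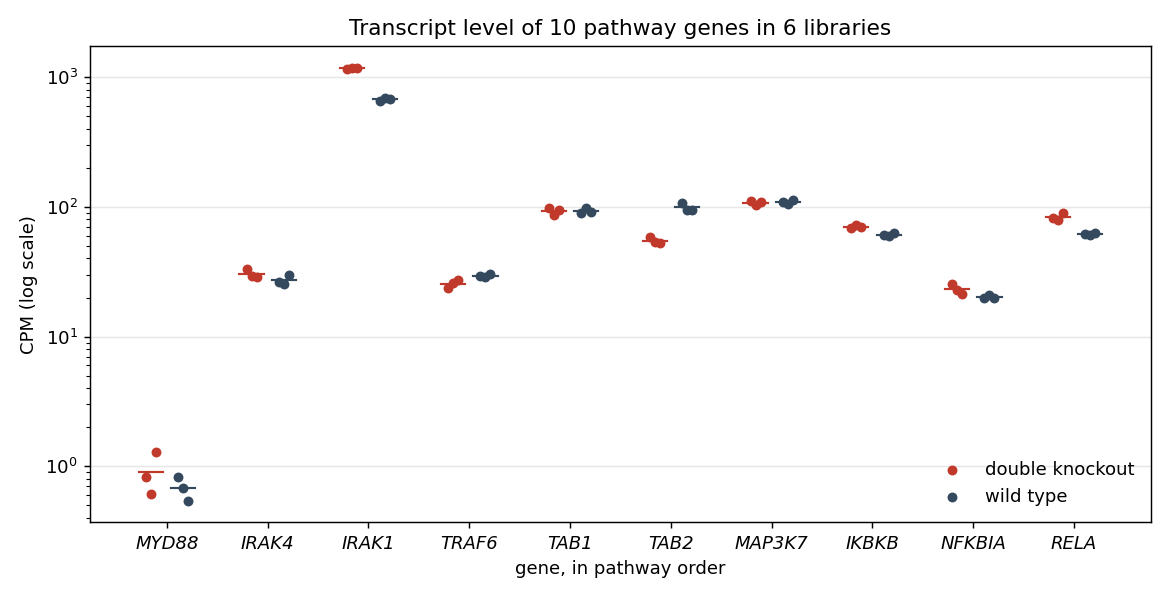
Level of each of the 10 members in CPM on a log axis, with a point for each library and a line at the group mean, double knockout left of wild type. IRAK1 is the highest of the members in every library, and MYD88 stays near or below 1 CPM in every library.

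MYD88, the adaptor that gives the pathway its name, was close to the limit of detection. It had 5, 4 and 8 counts in the double knockout libraries and 6, 5 and 3 in the wild type libraries. The groups overlap, and several libraries are near 3 counts, which is the level that a count of 0 would still allow (0.397 to 0.532 CPM). The means were 0.909 ± 0.339 CPM in double knockout and 0.683 ± 0.140 CPM in wild type (SD, n = 3 each). The ratio of the summed counts, 17 and 14, was 1.35 after scaling, with a 95% interval from 0.627 to 2.96 that covers counting error only. A difference in MYD88 (ENSG00000172936.13, chromosome 3, 38138478 to 38143022) was therefore not detectable at this depth.

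IRAK4, the kinase that phosphorylates IRAK1, had 33.3, 29.4 and 28.6 CPM in the double knockout libraries and 26.5, 25.5 and 29.6 CPM in the wild type libraries. The groups overlap, since the third wild type library lies above both of the lower double knockout libraries. The log2 fold change was 0.17 (SE 0.09, edgeR adjusted p = 0.0949), with a 95% interval from -0.01 to 0.35. IRAK1 stood at 54.6 ± 4.67 times the TPM of IRAK4 in double knockout and at 34.9 ± 2.96 times in wild type (SD, n = 3 each). IRAK4 (ENSG00000198001.13) lies on chromosome 12 from 43758944 to 43789543.

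TRAF6, the ubiquitin ligase downstream of IRAK1, had 23.8, 25.7 and 27.2 CPM in the double knockout libraries and 29.4, 29.1 and 30.1 CPM in the wild type libraries. All double knockout libraries lie below all wild type libraries, by little. The log2 fold change was -0.20 (SE 0.09, edgeR adjusted p = 0.0461). The call is marginal: it was lost in 8 of 13 alternative analyses, with adjusted p between 0.0549 and 0.179, among them 5 of the 6 that each left out a library. TRAF6 (ENSG00000175104.14) lies on chromosome 11 from 36487027 to 36510272.

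Among the members of the TAK1 complex followed here, MAP3K7, TAB1 and TAB2, only TAB2 was called. TAB2, which binds the ubiquitin chains made by TRAF6 and its partners, had 58.1, 53.9 and 52.3 CPM in the double knockout libraries and 108, 95.05 and 95.13 CPM in the wild type libraries. The groups are far apart, and the highest double knockout library is well below the lowest wild type library. TAB2 (ENSG00000055208.18, chromosome 6, 149218641 to 149411613) fell, with means of 54.8 ± 2.997 CPM in double knockout and 99.3 ± 7.33 CPM in wild type (SD, n = 3 each) and a log2 fold change of -0.86 (SE 0.06, edgeR adjusted p = 5.48e-41). The log2 fold change was -0.97 with the spike-in scaling and -0.91 to -0.80 when each library was left out in turn.

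MAP3K7, the kinase itself, had 111, 103 and 109 CPM in the double knockout libraries and 108, 106 and 113 CPM in the wild type libraries. Its log2 fold change was -0.02 (95% interval -0.11 to 0.08, edgeR adjusted p = 0.774). TAB1, which activates the kinase directly, had 98.1, 86.8 and 95.1 CPM in the double knockout libraries and 89.8, 97.8 and 91.3 CPM in the wild type libraries. Its log2 fold change was 0.00 (95% interval -0.10 to 0.10, edgeR adjusted p = 0.981), and its sign turned with the scaling, to -0.10 under the spike-in RNAs. For both genes the groups overlap and the interval leaves room only for small differences. MAP3K7 (ENSG00000135341.17) lies on chromosome 6 from 90513573 to 90587045, and TAB1 (ENSG00000100324.13) on chromosome 22 from 39399741 to 39437060.

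The ratio of TAB1 RNA to TAB2 RNA differed between the groups. The TPM of TAB1 over that of TAB2 was 2.28, 2.17 and 2.45 in the double knockout libraries and 1.12, 1.39 and 1.29 in the wild type libraries. The ratio averaged 2.30 ± 0.140 in double knockout and 1.27 ± 0.134 in wild type, and the groups do not overlap. The ratio was computed after the fall of TAB2 had been seen and was not tested.

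IKBKB, the catalytic subunit of IκB kinase that acts in the MYD88 pathway, had 69.1, 72.2 and 69.4 CPM in the double knockout libraries and 60.6, 60.0 and 62.5 CPM in the wild type libraries. The groups do not overlap. IKBKB (ENSG00000104365.14, chromosome 8, 42271302 to 42332653) rose, with a log2 fold change of 0.21 (SE 0.06, edgeR adjusted p = 0.00187). The spike-in scaling ended this call, with a log2 fold change of 0.09 and an adjusted p of 0.476.

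NFKBIA, the inhibitor that holds RELA in the cytoplasm, had 25.5, 22.8 and 21.1 CPM in the double knockout libraries and 19.9, 21.0 and 20.0 CPM in the wild type libraries. The groups do not overlap, but the lowest double knockout library is next to the highest wild type library. The log2 fold change was 0.18 (SE 0.10, edgeR adjusted p = 0.117), with a 95% interval from -0.02 to 0.38. NFKBIA (ENSG00000100906.10, chromosome 14, 35401511 to 35404749) is the member whose printed promoter holds the NF-κB consensus, and it is a widely used readout of the pathway.

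RELA, the transcription factor at the end of the chain, had 81.8, 78.6 and 90.1 CPM in the double knockout libraries and 61.3, 60.8 and 62.5 CPM in the wild type libraries. The wild type libraries lie within a narrow band, and all double knockout libraries are above it. RELA (ENSG00000173039.18, chromosome 11, 65653596 to 65663094) rose, with means of 83.5 ± 5.92 CPM in double knockout and 61.5 ± 0.832 CPM in wild type (SD, n = 3 each) and a log2 fold change of 0.44 (SE 0.06, edgeR adjusted p = 1.43e-12). It was 0.34 with the spike-in scaling (adjusted p = 0.00332). The long noncoding gene AP001362.2 overlaps RELA by 9 exon bases on the opposite strand and had 105 counts in double knockout and 69 in wild type, whereas RELA had 1565 counts in double knockout and 1238 in wild type.

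By TPM, which allows levels of different genes to be compared, the order of the members differed in its middle. In double knockout it ran IRAK1, TAB1, RELA, MAP3K7, NFKBIA, TAB2, IKBKB, IRAK4, TRAF6 and MYD88. The library ranges of RELA and MAP3K7, of NFKBIA and TAB2, and of IRAK4 and TRAF6 overlapped, so these neighbours have no order. In wild type it ran IRAK1, TAB1, TAB2, MAP3K7, RELA, NFKBIA, TRAF6, IKBKB, IRAK4 and MYD88, with no overlap between neighbours. IRAK1 stood 14.0 times above TAB1 in double knockout and 8.06 times in wild type. TAB2 stood level with NFKBIA in double knockout, whereas it stood above MAP3K7 in wild type.

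The wider pathway was read through 7 lists with 117 genes in all, of which 85 were tested. Of these, 27 rose, 18 fell and 40 were not called, with a median log2 fold change of 0.04. The share that rose was 31.8% and the share that fell 21.2%, beside 28.6% and 28.5% of all tested genes. With the spike-in scaling, 12 were higher and 20 lower, where 15% of all tested genes were higher and 29.9% lower. That scaling lowers the log2 fold change of all tested genes by 0.11 at the median. It rests on 316 to 440 GFP and FLuc counts a library, so the counting error of these spike-in RNAs enters every value under it.

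**Figure D2:**
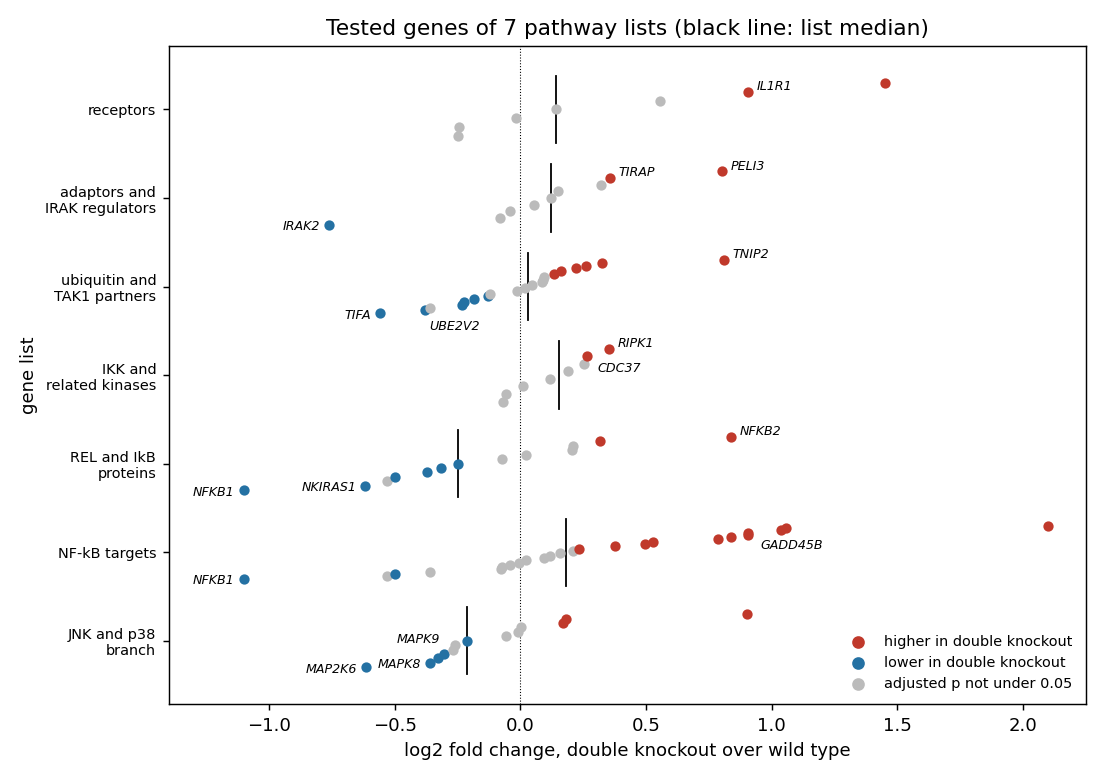
Log2 fold change, double knockout over wild type, of every tested gene in 7 pathway lists, with red points higher, blue points lower and grey points not called, and a black line at each list's median. Named genes are labelled, and NFKB1 at -1.10 and NFKB2 at 0.84 mark the spread among the REL and IκB proteins.

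Receptors of the pathway were mostly silent. Of 19 listed receptors and co-receptors, 7 were tested, of which 2 rose and 5 were not called, with a median log2 fold change of 0.14. Of all tested genes, 28.6% rose and 28.5% fell. Under the spike-in scaling 2 receptors were higher and 1 was lower, beside 15% and 29.9% of all tested genes. The filter can admit a gene through a single group, so a receptor low in wild type could enter through the double knockout libraries alone. With a mean of at least 5 CPM required instead, 1 receptor was higher and 0 were lower. Of all genes tested in that setting, 30.6% were higher and 31.1% lower. TLR2, TLR4, TLR6, TLR7, TLR8, TLR9 and TLR10 had 0 or 1 count in each group. IL1R1, the signalling chain of the interleukin-1 receptor, averaged 6.62 ± 0.548 CPM in double knockout and 3.46 ± 0.646 CPM in wild type (SD, n = 3 each). It rose, with a log2 fold change of 0.91 (SE 0.22, edgeR adjusted p = 1.26e-04). Its co-receptor IL1RAP had a log2 fold change of -0.25 (adjusted p = 0.108).

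Among 11 other adaptors and regulators of the IRAK kinases, 9 were tested, 2 rose and 1 fell, with a median log2 fold change of 0.12. Of all tested genes, 28.6% rose and 28.5% fell. Under the spike-in scaling 1 was higher and 1 lower, beside 15% and 29.9% of all tested genes. PELI3, a Pellino ubiquitin ligase that binds IRAK proteins, averaged 30.7 ± 4.25 CPM in double knockout and 17.5 ± 1.90 CPM in wild type and rose by 0.80 (SE 0.10, adjusted p = 3.56e-14). It overlaps MRPL11 and AP002748.3 on the opposite strand, and AP002748.3 had a log2 fold change of 0.93. IRAK2, the relative of IRAK1 that also joins the MYD88 complex, averaged 6.82 ± 2.15 CPM in double knockout and 11.5 ± 1.53 CPM in wild type, a log2 fold change of -0.76 (SE 0.16, adjusted p = 1.12e-05). IRAK1 and IRAK2 thus differed in direction. TIRAP, which carries MYD88 to the membrane, averaged 25.5 ± 0.681 CPM in double knockout and 20.2 ± 3.44 CPM in wild type and rose by 0.36 (adjusted p = 0.00118). That call was lost with the spike-in scaling (adjusted p = 0.134) and without wild type library 2 (adjusted p = 0.107), and TIRAP overlaps AP001318.2 on the opposite strand.

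Of 21 genes of the ubiquitin steps around TRAF6 and TAK1, 20 were tested, 6 rose and 6 fell, with a median log2 fold change of 0.03. Of all tested genes, 28.6% rose and 28.5% fell. Under the spike-in scaling 1 was higher and 6 were lower, beside 15% and 29.9% of all tested genes. TNIP2, which binds ubiquitin chains and NF-κB1 p105, averaged 64.1 ± 2.37 CPM in double knockout and 36.6 ± 0.672 CPM in wild type and rose by 0.81 (SE 0.07, adjusted p = 2.21e-26). UBE2V2, a partner of the conjugating enzyme UBE2N, averaged 112 ± 8.63 CPM in double knockout and 146 ± 4.53 CPM in wild type and fell by 0.38 (adjusted p = 7.13e-15). UBE2N itself had a log2 fold change of 0.09 (adjusted p = 0.0517). TIFA, which promotes the oligomerization of TRAF6, averaged 17.5 ± 0.763 CPM in double knockout and 25.8 ± 1.80 CPM in wild type and fell by 0.56 (adjusted p = 3.83e-07). It overlaps ALPK1 on the opposite strand.

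Of 9 other IκB kinase subunits and related kinases, 8 were tested, of which 2 rose and 6 were not called, with a median of 0.15. Of all tested genes, 28.6% rose and 28.5% fell. Under the spike-in scaling 0 were higher and 0 lower, beside 15% and 29.9% of all tested genes. At an unadjusted edgeR p under 0.05, 1 was higher and 0 were lower under that scaling. CDC37, the chaperone that serves many kinases, averaged 336 ± 4.99 CPM in double knockout and 280.1 ± 7.58 CPM in wild type, a log2 fold change of 0.27 (adjusted p = 3.74e-13), and was not called with the spike-in scaling (adjusted p = 0.117). It overlaps PDE4A on the opposite strand. RIPK1, which joins tumour necrosis factor signals to the same kinase, averaged 46.3 ± 4.25 CPM in double knockout and 36.2 ± 0.405 CPM in wild type, a log2 fold change of 0.35 (adjusted p = 1.97e-05), and was not called with the spike-in scaling (adjusted p = 0.0617). CHUK, the sister catalytic subunit of IKBKB, had 58.9 ± 3.53 TPM in double knockout and 56.5 ± 5.55 TPM in wild type, with a log2 fold change of 0.01 (95% interval -0.08 to 0.10, adjusted p = 0.886). CHUK overlaps ERLIN1. The regulatory subunit IKBKG had 14.8 ± 2.76 TPM in double knockout and 11.9 ± 1.37 TPM in wild type (log2 fold change 0.25, adjusted p = 0.0808), and its count is uncertain because it has a near-identical pseudogene.

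Among the REL and IκB proteins, the genes of the DNA-binding subunits p50 and p52 changed in opposite directions. Of 13 listed genes, 13 were tested, 2 rose and 6 fell, with a median log2 fold change of -0.25. Of all tested genes, 28.6% rose and 28.5% fell. Under the spike-in scaling 1 was higher and 7 were lower, beside 15% and 29.9% of all tested genes. NFKB1 had 30.6, 31.9 and 28.8 CPM in the double knockout libraries and 60.8, 63.3 and 73.9 CPM in the wild type libraries. Every double knockout library is far below every wild type library, and NFKB1 fell by 1.10 on the log2 scale (SE 0.07, edgeR adjusted p = 6.93e-41). NFKB2 had 39.5, 42.0 and 42.2 CPM in the double knockout libraries and 21.0, 23.1 and 25.8 CPM in the wild type libraries. Here every double knockout library is above every wild type library, and NFKB2 rose by 0.84 (SE 0.09, adjusted p = 2.50e-19).

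The RNAs of the 2 precursors therefore changed places in level. NFKB1 stood at 16.7 ± 0.688 TPM in double knockout and 35.1 ± 3.27 TPM in wild type, and NFKB2 at 31.6 ± 0.898 TPM in double knockout and 17.3 ± 1.57 TPM in wild type (SD, n = 3 each). The TPM of NFKB1 over that of NFKB2 was 0.556, 0.543 and 0.489 in the double knockout libraries and 2.07, 1.96 and 2.05 in the wild type libraries. The groups do not overlap, and this ratio was computed after both changes had been seen. RELA, the main partner of p50, stood above both in double knockout, at 52.5 ± 4.37 TPM, whereas its wild type level of 37.6 ± 0.166 TPM lies within the library range of NFKB1.

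The RNAs of the other transactivating REL proteins did not follow that of RELA. REL, the c-Rel protein of lymphoid cells, had 6.09 ± 0.0379 TPM in double knockout and 7.71 ± 0.626 TPM in wild type and fell by 0.37 (adjusted p = 2.24e-04). RELB, the partner of p52, had 3.23 ± 0.622 TPM in double knockout and 4.52 ± 0.795 TPM in wild type, a log2 fold change of -0.53 that was not called (adjusted p = 0.0713). NKIRAS1, a small GTPase-like protein that binds IκB, had 337 counts in double knockout and 556 in wild type and fell by 0.62 (adjusted p = 1.01e-08). It overlaps RPL15 and NR1D2 on the opposite strand, so its count is uncertain.

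**Figure D3:**
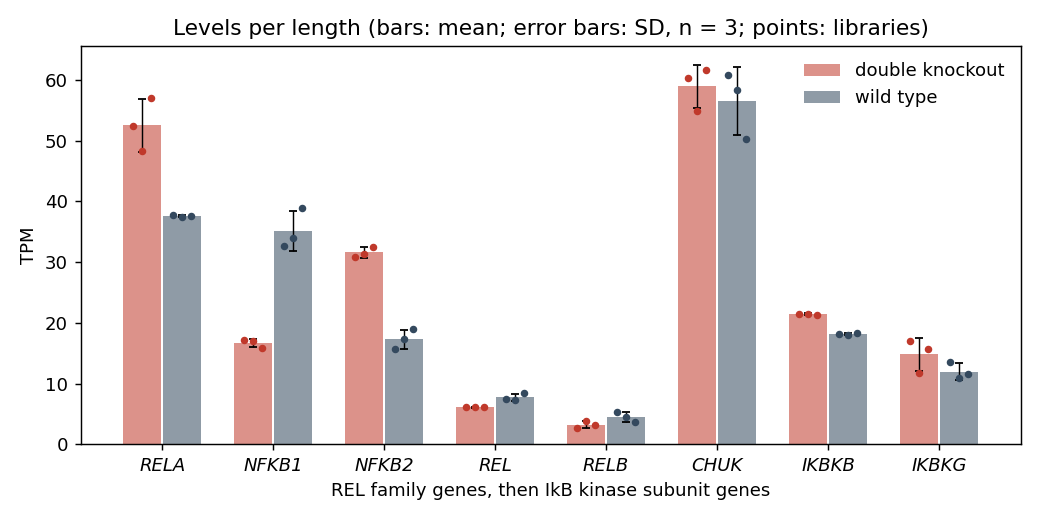
RNA levels of the genes of the REL proteins and IκB kinase subunits, in TPM. Bars stand at the group mean, with error bars of 1 SD (n = 3 each) and a point for each library, double knockout left of wild type. NFKB1 averages 16.7 TPM in double knockout and 35.1 in wild type, and NFKB2 31.6 in double knockout and 17.3 in wild type.

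NF-κB target genes were taken from a list of 40, of which 24 passed the filter. Of these 11 rose and 2 fell, with a median log2 fold change of 0.18, where 28.6% of all tested genes rose and 28.5% fell and their median was 0.01. With the spike-in scaling 7 of the 24 were higher and 3 lower, where 15% of all tested genes were higher and 29.9% lower. The filter can admit a gene through a single group, so a target low in wild type could enter through the double knockout libraries alone. With a mean of at least 5 CPM required instead, 8 were higher and 2 lower. Of all genes tested in that setting, 30.6% were higher and 31.1% lower. The cytokines and adhesion molecules that define an NF-κB response were near 0: CXCL10, CCL5, TNF and VCAM1 had 0 counts in all libraries, and IL6 had 3 counts in double knockout and 2 in wild type. GADD45B, a stress gene that restrains JNK signalling, averaged 16.5 ± 1.54 CPM in double knockout and 8.90 ± 0.913 CPM in wild type and rose by 0.91 (SE 0.14, adjusted p = 5.56e-10). NFKBIE and TNFAIP3, feedback inhibitors of the pathway, were not called, at 0.21 (adjusted p = 0.189) and -0.36 (adjusted p = 0.0932). NFKB1 and NFKB2 are on this list too. Many of these genes also respond to other factors.

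In the branch from TAK1 to JNK and p38, 13 of 13 genes were tested, 3 rose and 5 fell, with a median log2 fold change of -0.21. Of all tested genes, 28.6% rose and 28.5% fell. Under the spike-in scaling 1 was higher and 5 were lower, beside 15% and 29.9% of all tested genes. MAP2K6, a kinase that activates p38, averaged 38.04 ± 4.11 CPM in double knockout and 58.0 ± 1.58 CPM in wild type and fell by 0.61 (adjusted p = 1.51e-15). MAPK9, which encodes JNK2, averaged 105 ± 3.85 CPM in double knockout and 129 ± 0.989 CPM in wild type and fell by 0.31 (adjusted p = 1.20e-09). MAPK8, which encodes JNK1, averaged 54.6 ± 2.09 CPM in double knockout and 70.0 ± 3.79 CPM in wild type and fell by 0.36 (adjusted p = 7.75e-08).

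To describe its place on the chromosome, each member was set beside the 10 nearest tested genes on either side. Around IRAK1, 16 of these 20 genes were higher and 1 was lower in double knockout, with a median log2 fold change of 0.43. IRAK1 exceeded that median by 0.37, and 6 of the 20 genes had a larger log2 fold change than IRAK1. Around TAB2, 17 were lower and 3 not called, with a median of -0.73, so TAB2 lay 0.13 below its surroundings, and 7 of the 20 genes were lower still. Around RELA, 10 were higher and 1 was lower, with a median of 0.18, which RELA exceeded by 0.27. The surroundings of TRAF6 and IKBKB had medians of 0.01 and 0.00. MYD88 lies among genes of which 1 was higher and 16 were lower, with a median of -0.65. The part of the surroundings in the values of single members was not tested.

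**Figure D4:**
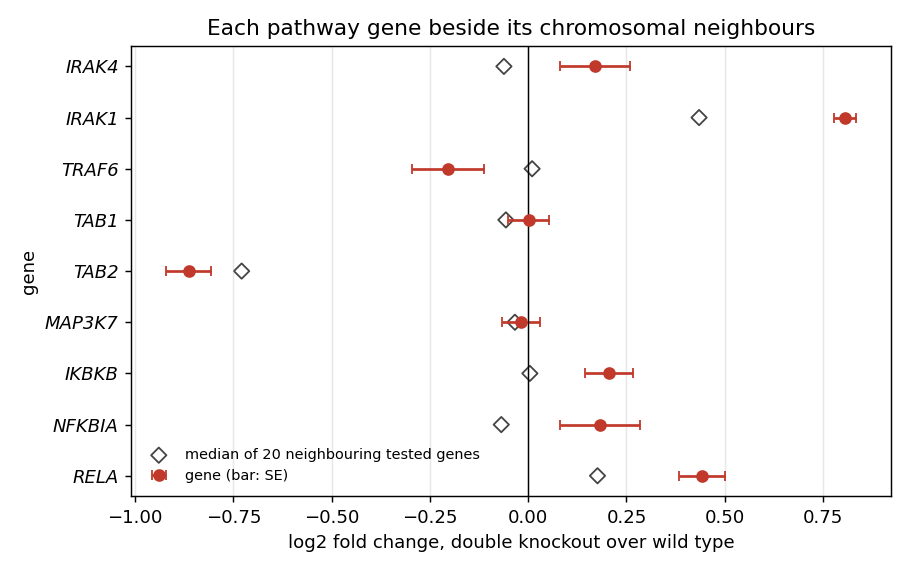
Log2 fold change, double knockout over wild type, of each tested member (red points, bars of 1 SE), beside the median of its 20 neighbouring tested genes (open diamonds). IRAK1 at 0.81, TAB2 at -0.86 and RELA at 0.44 lie on the side on which their surroundings lie, with medians of 0.43, -0.73 and 0.18.

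The same holds for some of the named pathway genes and not for others. NFKB1 fell among neighbours of which 16 were lower and 4 not called (median -0.73). TNIP2 and PELI3 rose among neighbours of which 18 and 16 were higher and the rest not called (medians 0.43 and 0.40), and IRAK2 fell among neighbours with 1 higher and 17 lower (median -0.52). NFKB2, by contrast, lay among 7 higher and 6 lower neighbours with a median of 0.03, and 0 of the 20 exceeded it. IL1R1, GADD45B and MAP2K6 also lay among neighbours with medians near 0, at 0.00, 0.07 and -0.06. MAPK9 had the log2 fold change of its surroundings, whose median was -0.31. The named genes were the called genes of smallest p in their lists, and IRAK1 was chosen for its rise. A change larger than that of unselected neighbours is thus partly built in by the choice.

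Next to IRAK1 on the X chromosome the nearest genes were mixed. Toward lower coordinates, L1CAM, a neural adhesion molecule, had a log2 fold change of 2.11 (SE 0.27), RENBP of 1.81 (SE 0.21), ARHGAP4 of 0.88 and TMEM187 of 0.37. The highest 2 were genes of low level. L1CAM averaged 6.73 ± 0.377 CPM in double knockout and 1.54 ± 0.814 CPM in wild type. RENBP averaged 9.41 ± 0.964 CPM in double knockout and 2.80 ± 1.28 CPM in wild type (SD, n = 3 each). HCFC1, an abundant chromatin cofactor at 330.7 ± 5.52 CPM in double knockout and 330.9 ± 0.760 CPM in wild type, had 0.00 (adjusted p = 0.984). Toward higher coordinates, FLNA, which encodes the actin crosslinker filamin A, had 0.79, with 927 ± 28.7 CPM in double knockout and 537 ± 13.7 CPM in wild type (SD, n = 3 each). EMD had 0.13, the ribosomal protein gene RPL10 -0.21 and AC245140.2 0.59. The genes on either side of IRAK1 thus include some that were far higher and HCFC1, whose SE of 0.03 leaves room only for small differences.

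**Figure D5:**
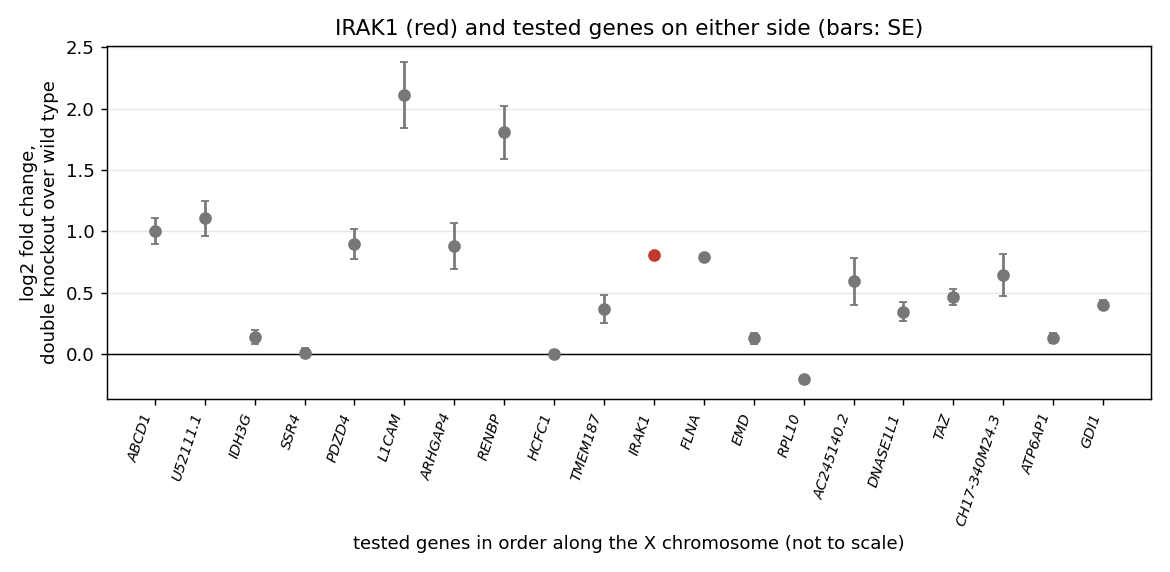
Log2 fold change, double knockout over wild type, of tested genes on either side of IRAK1, in their order along the X chromosome and with bars of 1 SE. IRAK1 stands in the middle at 0.81 in red. L1CAM and RENBP are the highest at 2.11 and 1.81, and RPL10 is the lowest at -0.21.

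The 5 genes whose profile over the 6 libraries was most like that of IRAK1 were sought among 5697 tested genes with a mean of at least 50 CPM. Likeness was the root mean square distance between log2 CPM values centred on each gene's mean. FLNA was nearest at 0.0246, followed by GPSM1 at 0.0316, WDR34 at 0.0325, E2F2 at 0.0398 and GTSF1 at 0.0399. Their log2 fold changes were 0.79, 0.83, 0.86, 0.85 and 0.82. FLNA is also among the 5 nearest genes on the chromosome. WDR34 overlaps SPTAN1 on the opposite strand, so its count is uncertain. Since IRAK1 was chosen for its difference between the groups, genes with the same difference are near it by construction.

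ALKBH5 and FTO act on m6A, which is placed mostly within a short motif whose commonest form is GGACT in DNA letters, so the motif was counted in the longest coding transcript of each member. Over 12122 tested coding genes the median was 0.926 per 1000 bases, with quartiles of 0.573 and 1.38. IRAK1 had 0.818 per 1000 bases and TAB2 0.659, both between the quartiles. NFKBIA at 2.57 and RELA at 2.20 lay above the upper quartile, and MAP3K7 at 0.407 and TRAF6, with 0 in 4627 bases, below the lower. IRAK4 at 1.17, MYD88 at 1.05, TAB1 at 1.24 and IKBKB at 0.737 lay between. IRAK1, which was chosen for its rise, lay below the median. Of the other members that rose, RELA lay above the median and IKBKB below it. Both members that fell, TAB2 and TRAF6, lay below it. A link between the motif and the direction of change was not tested. Methylation itself was not measured here.

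Promoters with the NF-κB consensus were set beside those without it in the same way. Of 922 tested genes with a match, 34.3% were higher and 29.7% lower in double knockout, and of 9171 tested genes with a promoter and no match, 28.9% were higher and 30.4% lower. Among the tested genes of the pathway lists, 23 had a match, of which 8 were higher, 7 lower and 8 not called. The 52 without a match had 15 higher, 10 lower and 27 not called. NFKB1, which fell, and NFKB2, which rose, both have the motif in the windows printed above.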

How the data were processed

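RNA was sequenced from 6 HEK293T libraries, 3 double knockout and 3 wild type. Per the submitters' processing notes, the authors used cutadapt 2.10, STAR 2.7.6a, hg38 and featureCounts, and the deposited table gives raw counts of reads for each gene, without normalization. How strands and reads with several alignments were counted is not stated there, so genes that overlap or have near-identical copies are marked as uncertain. The labels state a directional library kit and 7 pg of GFP and 1.2 pg of FLuc RNA added to 1 µg of RNA. The wild type columns carry the name HEK293G6, which the labels do not explain, and were taken as the wild type libraries, the sole genotype left.

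Counts were fitted in R 4.3.3 with edgeR 4.0.16 (TMM scaling, filterByExpr with a minimum count of 10, robust quasi-likelihood fit, two-sided test), and p-values were adjusted (Benjamini-Hochberg) across the 14180 genes tested, calling those under 0.05. A positive log2 fold change means higher in double knockout. CPM used the TMM-scaled totals, and TPM used merged exon lengths of GENCODE release 29, which matched all 58721 gene identifiers. Intervals of the log2 fold changes were normal 95% intervals from their SE. Biological replication rests on the labels' statement. With 3 against 3 libraries a permutation test of a single value cannot give a p below 0.1, so none was run. The fit was tested on simulated counts.

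The members and gene lists were chosen with earlier results of these data known, and the genes named are the 10 members, ALKBH5 and FTO, the 3 called genes of smallest p with a mean of at least 5 CPM in each list, the 5 tested genes on each side of IRAK1 (some results are not reported here) and the 5 most like it; other genes named in the text were chosen after their values were seen. Of 4 spike-in entries, GFP and FLuc entered an alternative scaling and Ribo and Rluc none. Alternatives were DESeq2 1.42.0 (its size factors, and its test), the spike-in scaling, voom in limma 3.58.1, no filter, a mean of at least 5 CPM, replicate number as a block, and each library left out.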

Additional observations from a re-analysis of the deposited data

Results flagged for a closer look

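The table holds a spike-in entry, Rluc, that the labels do not mention and that no comparison used. It had 2005 counts over the 6 libraries, with 328, 367 and 298 in the double knockout libraries and 378, 363 and 271 in the wild type libraries, which is above the 3 counts that a count of 0 allows. The labels name GFP and FLuc as the added RNAs. The source of the Rluc counts was not tested.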

How the results depend on the processing

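Of the members, RELA and TAB2 kept their call and direction under all 13 alternatives, and IRAK1 lay between 0.78 and 0.82 when each library was left out and at 0.70 with the spike-in scaling. With that scaling, the counts of genes called higher were 1 among the members other than IRAK1, 1 among adaptors, 1 among ubiquitin genes, 0 among the IκB kinase group (edgeR; 1 at an unadjusted p under 0.05, and 2 in DESeq2 with its own scaling), 1 among REL and IκB proteins, 7 among targets, 1 in the JNK and p38 branch and 12 over all lists, and 1 receptor was lower. With DESeq2's test, 1 member was lower, and 3 ubiquitin genes, 7 targets and 1 gene of the JNK and p38 branch were higher. Without a filter, and with a mean of at least 5 CPM, 1 member was lower, and with that mean 1 receptor was higher, since fewer receptors were tested. TAB1, at 0.00, changed sign to -0.099 with the spike-in scaling and -0.013 without a filter, and ranged from -0.040 to 0.050 when each library was left out, as MAP3K7 did from -0.046 to 0.0090 (above 0 without double knockout library 2). Leaving out each library in turn gave 1 to 2 members lower, 0 to 1 receptors lower, 1 to 3 adaptors higher (1 without wild type library 2), 3 to 6 ubiquitin genes higher (3 without wild type library 2), 1 to 3 targets lower (1 without wild type library 1) and 1 to 3 genes of the JNK and p38 branch higher (1 without double knockout library 1). The shares of all tested genes called higher and lower also moved with the setting. They were 15% and 29.9% with the spike-in scaling, and 21.3% and 22.1% in DESeq2's test. Without a filter they were 13.2% and 13.6%, and with a mean of at least 5 CPM 30.6% and 31.1%. With a library left out they were 25.1% to 26.3% and 26.1% to 26.9%. Where not stated, the cause of a changed count was not tested. Replicate numbers did not pair the libraries (correlations of 0.0106, 0.0166 and 0.00850 between libraries of the same number), and with the replicate block 2 members were higher and 2 lower, 8109 genes were called in place of 8093, and no call of a named gene changed. Without a filter 29387 genes were tested and 7885 called. Depth limits MYD88, at 3 to 8 counts a library, and the 12 receptors and co-receptors that did not pass the filter.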

Other observations

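Several genes of the lists lay outside the rule for naming and were picked after their values were seen. TLR3, the receptor of double-stranded RNA that signals without MYD88, had 49 counts in double knockout and 19 in wild type, a log2 fold change of 1.45. Among the listed NF-κB targets, PLAU, which encodes the urokinase plasminogen activator, had 65 counts in double knockout and 16 in wild type, a fitted fold change of 4.29. That value is on the linear scale, and the values in brackets below are log2 fold changes. TNFAIP2 had 74 counts in double knockout and 38 in wild type (1.06, edgeR adjusted p = 8.44e-04). The apoptosis inhibitor BIRC3 had 52 counts in double knockout and 27 in wild type (1.04). TLR3, PLAU and BIRC3 were low in wild type, and the filter can admit a gene through a single group. They could enter through the double knockout libraries alone, so their values are a description and no p is given for them. TRAF1, an adaptor of the tumour necrosis factor receptors, averaged 11.7 CPM in double knockout and 6.38 CPM in wild type (0.90, adjusted p = 2.29e-07). IER3 averaged 7.71 CPM in double knockout and 4.52 CPM in wild type (0.79, adjusted p = 2.53e-04), and IRF1 10.7 CPM in double knockout and 7.69 CPM in wild type (0.50, adjusted p = 0.00465). The targets named here were all picked among those that rose. Over the whole target list, 11 of the 24 tested genes rose, 2 fell, NFKB1 among them, and 11 were not called. In the branch to p38, MAPK11 averaged 7.64 CPM in double knockout and 4.14 CPM in wild type (0.90, adjusted p = 4.26e-05), while MAPK14 averaged 97.4 CPM in double knockout and 113 CPM in wild type (-0.21, adjusted p = 6.73e-05).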
